A study of Mus musculus with 7 samples.

Results

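Transcripts of respiratory complex I were compared in brown adipose tissue of mice injected with a brown adipocyte secretion product and of sham mice. The genes are the protein-coding genes of the deposited table whose symbol starts with Nduf, counted once each, which gave 47 of 55487 genes, or 47 of 21936 protein-coding genes. They comprise 7 core subunits, 30 accessory subunits and 8 assembly factors of the Ndufaf series, and 2 genes, Ndufa4 and Ndufa4l2, that carry the name only. The division follows structural knowledge of the complex. The gene descriptions in the table call Ndufs4, Ndufs5, Ndufs6 and Ndufv3 core subunits, and here they are counted as accessory.

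All 7 mice were NOD/ShiLtJ, an inbred strain that develops autoimmune diabetes, with a blood glucose of 190 to 230 mg/dL at the time of injection. The 4 CB-100 mice were given CB-100, the material above 100 kDa from a buffer in which brown adipocytes had been kept, under the skin at 1.5 mg/kg body weight for 7 days. The 3 sham mice received KRBH buffer, and their labels repeat the CB-100 protocol without a schedule of their own. Brown fat was taken 2 to 8 weeks after the injections, with no week, age or batch given per mouse. Sample titles carry the letters nd for all CB-100 mice and d for all sham mice, which the labels do not spell out, so whatever these letters mark cannot be told apart from the injection. Each group held 1 male, by Xist and Y-linked counts, which is replicate 3 of both. Libraries held 10815101 to 28528471 counts.

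Complex I oxidises NADH, passes the electrons along a chain of iron-sulfur clusters to ubiquinone, and pumps protons across the inner mitochondrial membrane. Its N module binds NADH, its Q module reduces ubiquinone, and its proximal and distal membrane modules hold the pumping subunits, of which the mitochondrial genome encodes the cores. Accessory subunits surround the cores and stabilise the complex, and assembly factors act on intermediates without staying in the finished enzyme. Brown adipocytes are rich in mitochondria, where the proton gradient made by respiration can be spent as heat through Ucp1.

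Promoters of 4 genes that fell in CB-100 mice are shown, 1 of them core and 3 accessory. They were picked because they hold a match to a motif of a factor known for nuclear respiratory genes. Ndufc2, Ndufa7, Ndufb3 and Ndufa1 had smaller adjusted p-values but held no match and are not shown. Each promoter shown is the 250 bases before the most upstream transcription start in the RefSeq table (GRCm38.p6). It is written 5′ to 3′ on the gene's strand, with the match in capitals.
Ndufa5: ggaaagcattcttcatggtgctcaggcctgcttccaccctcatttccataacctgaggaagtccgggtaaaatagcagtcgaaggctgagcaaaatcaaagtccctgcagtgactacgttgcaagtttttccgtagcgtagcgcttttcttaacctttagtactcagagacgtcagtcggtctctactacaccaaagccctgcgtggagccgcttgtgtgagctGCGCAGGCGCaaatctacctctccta
Ndufs6: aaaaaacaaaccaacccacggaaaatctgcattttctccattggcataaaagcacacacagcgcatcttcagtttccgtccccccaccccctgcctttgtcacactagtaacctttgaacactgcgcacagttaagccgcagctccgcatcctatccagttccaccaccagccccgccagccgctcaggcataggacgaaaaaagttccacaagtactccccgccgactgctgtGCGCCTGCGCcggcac
Ndufs7: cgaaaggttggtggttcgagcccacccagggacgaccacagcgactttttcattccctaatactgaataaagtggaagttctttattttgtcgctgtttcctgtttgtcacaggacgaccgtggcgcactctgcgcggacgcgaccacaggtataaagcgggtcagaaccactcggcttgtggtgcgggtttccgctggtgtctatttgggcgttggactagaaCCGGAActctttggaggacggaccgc
Ndufa9: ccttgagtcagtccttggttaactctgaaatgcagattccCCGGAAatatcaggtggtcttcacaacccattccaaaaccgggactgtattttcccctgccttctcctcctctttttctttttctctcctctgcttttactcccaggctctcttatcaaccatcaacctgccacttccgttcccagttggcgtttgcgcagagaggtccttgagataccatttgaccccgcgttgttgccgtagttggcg
The Ndufa5 window (chr6:24527691-24527940, minus strand) and the Ndufs6 window (chr13:73328483-73328732, minus strand) hold the NRF1 motif, 26 to 17 and 16 to 7 bases before the start. The Ndufs7 window (chr10:80249199-80249448, plus strand) and the Ndufa9 window (chr6:126849145-126849394, minus strand) hold the GABPA motif CCGGAA, 26 to 21 and 210 to 205 bases before it. Both strands were searched, and a match is a description of letters, not a binding site. RefSeq starts need not be the outermost starts of GENCODE, and as GENCODE M21 draws the genes, the Ndufa5 and Ndufs7 windows lie wholly inside the gene, the Ndufs6 window lies partly inside, and the Ndufa9 window lies outside.

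The promoter table held 40 of the 47 genes. Genes without an entry included Ndufa2, Ndufs1, Ndufb1-ps, Ndufb9, Ndufa4l2 and Ndufaf6. The NRF1 motif was found in 7 of 40 (17.5%), against 8.10% of 10517 tested protein-coding genes and 3.87% of all 27025 promoters. GABPA's motif was in 10 (25.0%), against 21.8% and 12.3%. YY1's motif, GCCATNTT, was in 5 (12.5%), against 4.23% and 3.91%, and that of ERRA, AAGGTCA, was in 3 (7.5%), against 2.68% and 4.04%. At least 1 of the 4 motifs was present in 23 of 40 (57.5%), against 32.4% of tested protein-coding genes. Among members that passed the test below, 2 of 9 with an entry held the NRF1 motif and 2 of 9 the GABPA motif. Among the others these were 5 and 8 of 31. The ERRA motif was in 0 of 9 and 3 of 31, and the YY1 motif in 0 of 9 and 5 of 31. Ndufc2, Ndufa7, Ndufb3, Ndufa1 and Ndufa4 passed the test and held none of the 4 motifs. The median GC content of the windows was 57.8% for the Nduf genes and 59.6% for tested protein-coding genes.

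Most Nduf genes had a lower transcript estimate in CB-100 brown fat than in sham brown fat, and 10 of 47 passed the test. These 10 fell and none rose at an adjusted p of 0.05 (edgeR's quasi-likelihood test, Benjamini-Hochberg over 16823 genes), and a further 13 had an adjusted p between 0.05 and 0.1. Over all tested genes the test called 3.70% in either direction, 2.28% lower and 1.42% higher, and 2.44% of protein-coding genes lower. At 0.1 it called 6.14% of all tested genes lower, and 23 of the 47. An unadjusted edgeR p under 0.05 was found for 4022 of all 16823 tested genes and for 36 of the 47. The estimate was below 0 in 44 of 47 genes, against 47.3% of all tested genes, and the median log2 change was −0.68, against 0.03 for all tested genes and 0.02 for protein-coding ones. In 27 of the 47 every CB-100 library lay below every sham library, which held for 12.2% of all tested genes. Of the 37 core and accessory subunits of complex I, 9 were called, and in 24 the groups were separate in this way. In tissue RNA, fewer cells of a type and less RNA per cell cannot be told apart. The count of called genes rested on the full set of libraries. Leaving out CB-100 replicate 1, 2, 3 or 4 gave 1, 0, 1 or 8 called, and leaving out sham replicate 1, 2 or 3 gave 0, 2 or 0, while the median log2 change stayed between −0.80 and −0.54. Ndufc2 and Ndufa7 stayed called in 3 of the 7 omissions, Ndufs6 and Ndufa9 in 0, and the other 6 in 1 each.

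**Figure D1:**
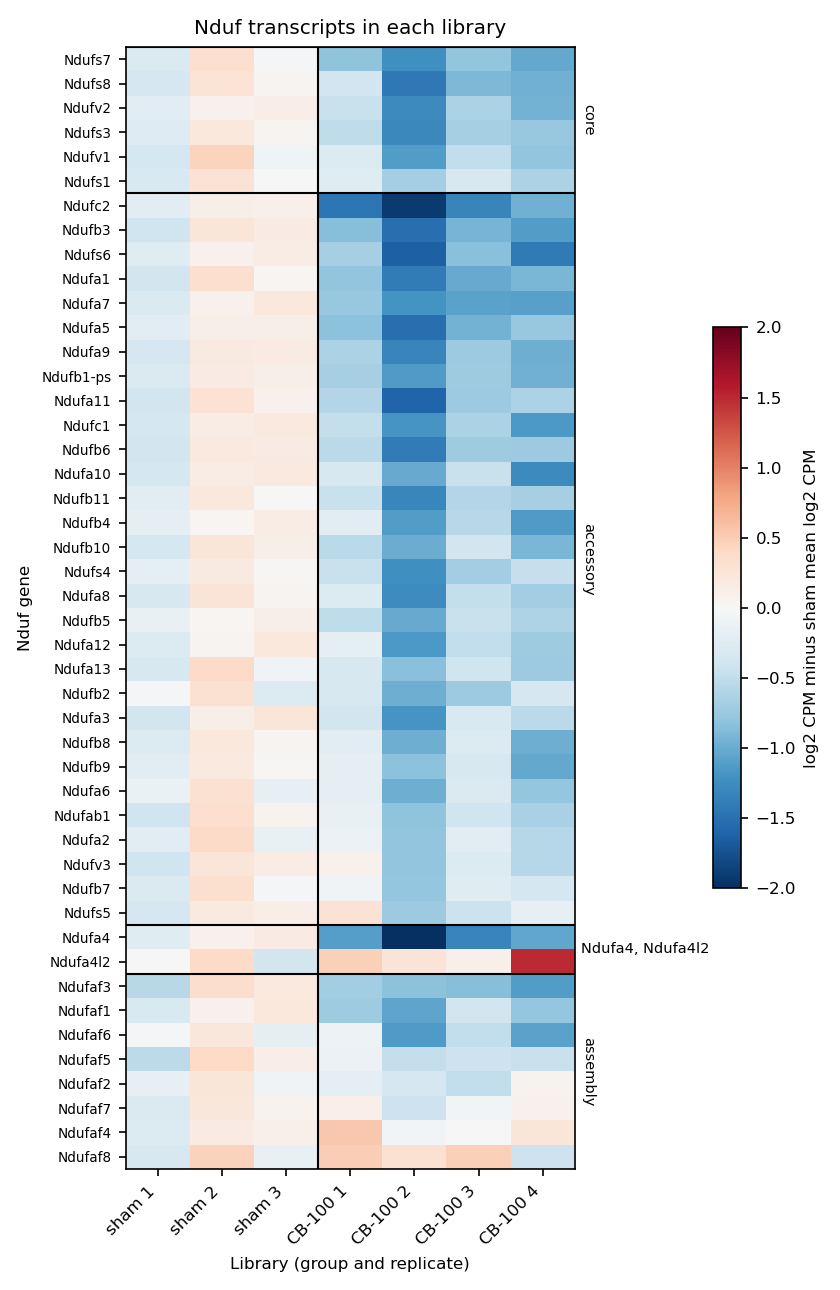
Each cell is the log2 CPM of 1 gene (rows, by class) in 1 library (columns) minus that gene's sham mean, so blue is lower than sham and red higher. Subunit rows are mostly blue across the 4 CB-100 libraries, with CB-100 replicate 2 the lowest in 34 of 37 subunits, while assembly factor rows are paler and mixed.

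The libraries kept nearly the same order from subunit to subunit. CB-100 replicate 2 was the lowest CB-100 library in 34 of the 37 core and accessory subunits, CB-100 replicate 1 was the highest in 31, and sham replicate 1 was the lowest sham library in 35. The geometric mean over the 37 subunits, in CPM (counts scaled by TMM to a common library size), was 79.8, 48.2, 71.2 and 61.1 in CB-100 replicates 1 to 4 and 88.0, 125 and 113 in sham replicates 1 to 3. The groups did not overlap, and the narrowest gap was between CB-100 replicate 1 and sham replicate 1. All 47 genes together made up 0.609% ± 0.108 (SD, n = 4) of nuclear protein-coding counts in CB-100 mice and 0.931% ± 0.134 (SD, n = 3) in sham mice. In the pair of males, 45 of 47 genes were lower in the CB-100 mouse, with a median log2 difference of −0.58. In the females alone, 44 of 47 estimates were below 0 with a median of −0.73, and edgeR called 0 genes of any kind (2578 of all genes and 26 of the 47 had an unadjusted p under 0.05).

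Of the 7 nuclear core subunits, which carry the flavin and the iron-sulfur clusters, 1 fell, 4 had adjusted p-values between 0.05 and 0.1, and all 7 estimates were below 0 (median log2 change −0.80). The share called lower was 2.28% over all tested genes. The gene that passed was Ndufs7 (chr10:80249121-80256794, 9 exons), whose protein holds the last cluster before ubiquinone. Its CPM were 143, 107, 145 and 124 in the CB-100 libraries and 204, 317 and 243 in the sham libraries. No CB-100 library reached the lowest sham library, and the log2 change was −0.98 (SE 0.20, edgeR adjusted p = 0.037).

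Ndufs8 and Ndufs3, cores of the same module, did not pass. Ndufs8, which also holds iron-sulfur clusters, had 88.5, 42.5, 61.5 and 59.4 CPM in CB-100 mice and 91.5, 139 and 120 in sham mice (log2 change −0.89, SE 0.25, edgeR adjusted p = 0.073). Ndufs3, a scaffold of the module, had 122, 70.9, 109 and 102 CPM against 144, 199 and 180 (log2 change −0.79, SE 0.21, edgeR adjusted p = 0.065). In both the CB-100 libraries lay below the sham libraries, in Ndufs8 by a narrow gap. Ndufs3 overlaps Kbtbd4 exons on the opposite strand and has non-whole counts, so its value is uncertain.

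Among the N module cores, Ndufv2, an iron-sulfur protein beside the flavin, had 127, 71.7, 112 and 89.8 CPM in CB-100 mice and 149, 183 and 191 in sham mice, with no overlap (log2 change −0.80, SE 0.21, edgeR adjusted p = 0.067). Ndufv1, which binds NADH and the flavin, had 360, 200, 308 and 252 CPM against 341, 591 and 408 (log2 change −0.67, SE 0.26, edgeR adjusted p = 0.16). Ndufs1, which carries several of the clusters, had 253, 186, 239 and 191 CPM against 242, 364 and 299 (log2 change −0.47, SE 0.20, edgeR adjusted p = 0.19). In Ndufv1 and Ndufs1 the groups overlapped through CB-100 replicate 1, which exceeded sham replicate 1. Ndufs1 overlaps exons of the noncoding gene Ino80dos on the opposite strand and has non-whole counts, so its value is uncertain too.

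All 30 accessory subunits had estimates below 0, from −1.38 to −0.22 with a median of −0.69, and 8 fell. In 19 of the 30 the groups did not overlap. Over all tested genes, 2.28% were called lower and 12.2% had every CB-100 library below every sham library. By location, 2 of 7 in the N module fell (median −0.60), both members of the Q module did, as did 2 of 9 in the proximal membrane arm (median −0.73) and 2 of 11 in the distal arm (median −0.70). With the cores included, the 6 Q module genes had a median of −0.90 with 3 called and no overlap in any of the 6, and the 10 N module genes had a median of −0.64 with 2 called and no overlap in 5. The difference between modules was not tested.

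**Figure D2:**
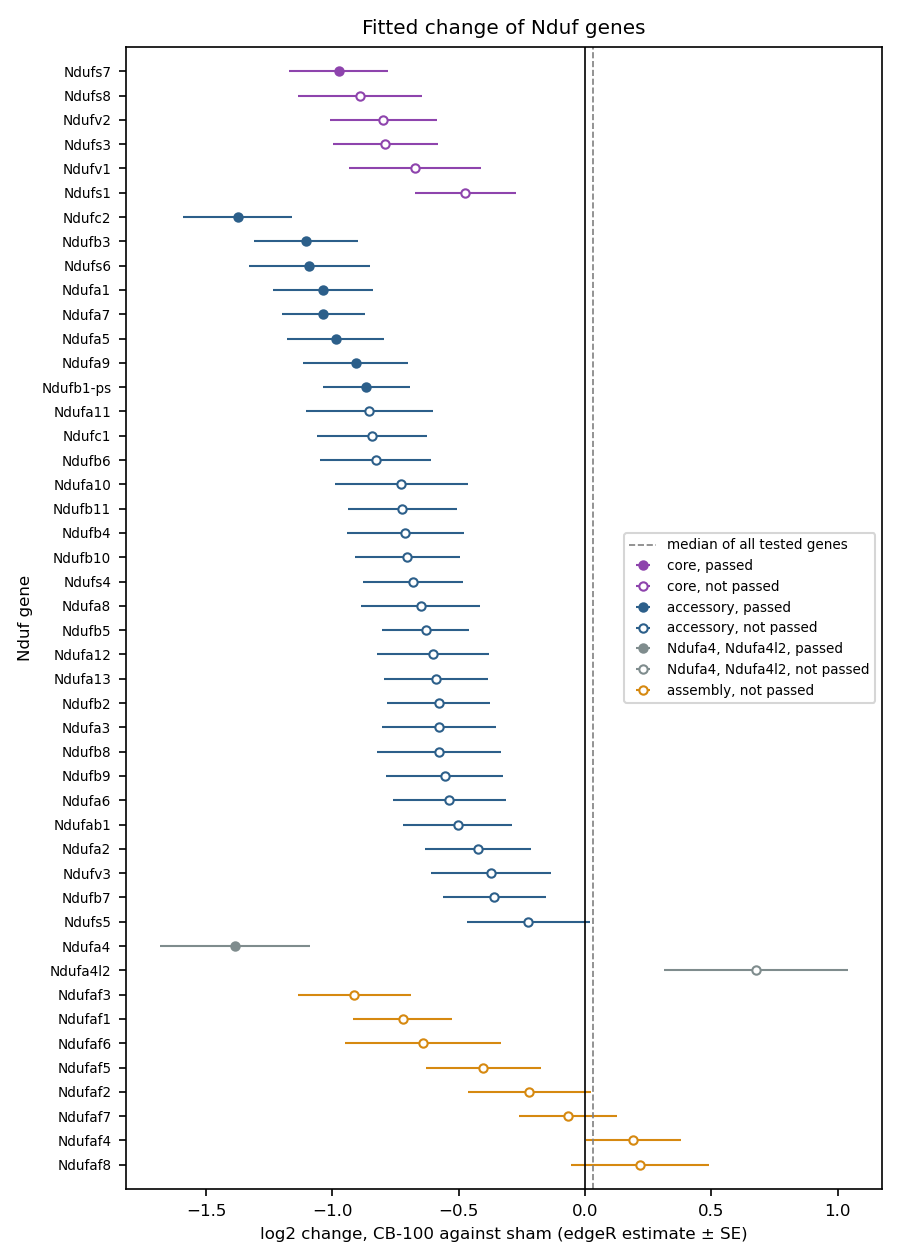
Points are edgeR's log2 change of each gene, CB-100 against sham, with 1 SE to each side, and filled points passed an adjusted p of 0.05. The dashed line is the median of all tested genes (0.03), and all core and accessory points drawn lie to its left.

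In the proximal membrane arm, Ndufc2 (chr7:97400003-97407802, 3 exons) had the lowest estimate of any subunit. It had 43.5, 31.1, 47.5 and 60.6 CPM in CB-100 mice and 101, 128 and 127 in sham mice. The highest CB-100 library was well below the lowest sham library, and the mean was 2.59-fold lower (log2 change −1.38, SE 0.22, edgeR adjusted p = 0.023). Ndufa1 (chrX:37187588-37191163, 3 exons), a small membrane subunit, had 38.6, 25.5, 33.1 and 35.6 CPM against 51.8, 84.2 and 68.6. Here too the groups were separate, with sham replicate 1 nearest to the CB-100 mice (log2 change −1.04, SE 0.20, edgeR adjusted p = 0.035).

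In the distal arm, Ndufb3 (chr1:58586384-58595964, 3 exons), a single-pass membrane protein, had 55.1, 35.0, 52.1 and 45.6 CPM in CB-100 mice and 75.4, 117 and 111 in sham mice. Ndufb1-ps (chr12:101968090-101977068, 3 exons), listed as protein-coding despite its symbol, had 17.96, 13.0, 17.3 and 14.5 CPM against 23.3, 31.7 and 30.8. Neither gene's groups overlapped. The log2 changes were −1.11 (SE 0.21, edgeR adjusted p = 0.034) for Ndufb3 and −0.87 (SE 0.17, edgeR adjusted p = 0.037) for Ndufb1-ps. Ndufb1-ps shares exon sequence with Cpsf2 on the opposite strand and has non-whole counts, so its value is uncertain.

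Both accessory subunits of the Q module fell. Ndufa5 (chr6:24518666-24528013, 5 exons), whose promoter with the NRF1 motif is shown above, had 50.3, 31.1, 46.0 and 52.4 CPM in CB-100 mice and 75.9, 95.7 and 96.0 in sham mice (log2 change −0.99, SE 0.19, edgeR adjusted p = 0.035). Ndufa9 (chr6:126821721-126849136, 11 exons), which binds a nucleotide and sits where the arms of the complex meet, had 104, 64.1, 97.2 and 81.5 CPM against 127, 182 and 180 (log2 change −0.91, SE 0.21, edgeR adjusted p = 0.049). CB-100 replicate 1 came closest to the sham libraries in Ndufa9 and CB-100 replicate 4 in Ndufa5, without overlap. Ndufa9 overlaps the antisense gene 1700018A23Rik in its exons, and the counting is not known to use strand.

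In the N module, Ndufa7 (chr17:33824572-33838317, 4 exons) had 39.4, 29.2, 31.7 and 31.4 CPM in CB-100 mice and 54.5, 71.2 and 77.0 in sham mice. Its CB-100 libraries were close together, and the mean was 2.05-fold lower (log2 change −1.04, SE 0.16, edgeR adjusted p = 0.023). Ndufs6 (chr13:73319838-73328542, 3 exons), a zinc-binding subunit, had 62.7, 32.0, 55.8 and 37.3 CPM against 84.3, 105 and 111. The groups did not overlap although the CB-100 libraries spread widely (log2 change −1.09, SE 0.24, edgeR adjusted p = 0.045). Ndufs6 shares exon sequence with Mrpl36 on the opposite strand.

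**Figure D3:**
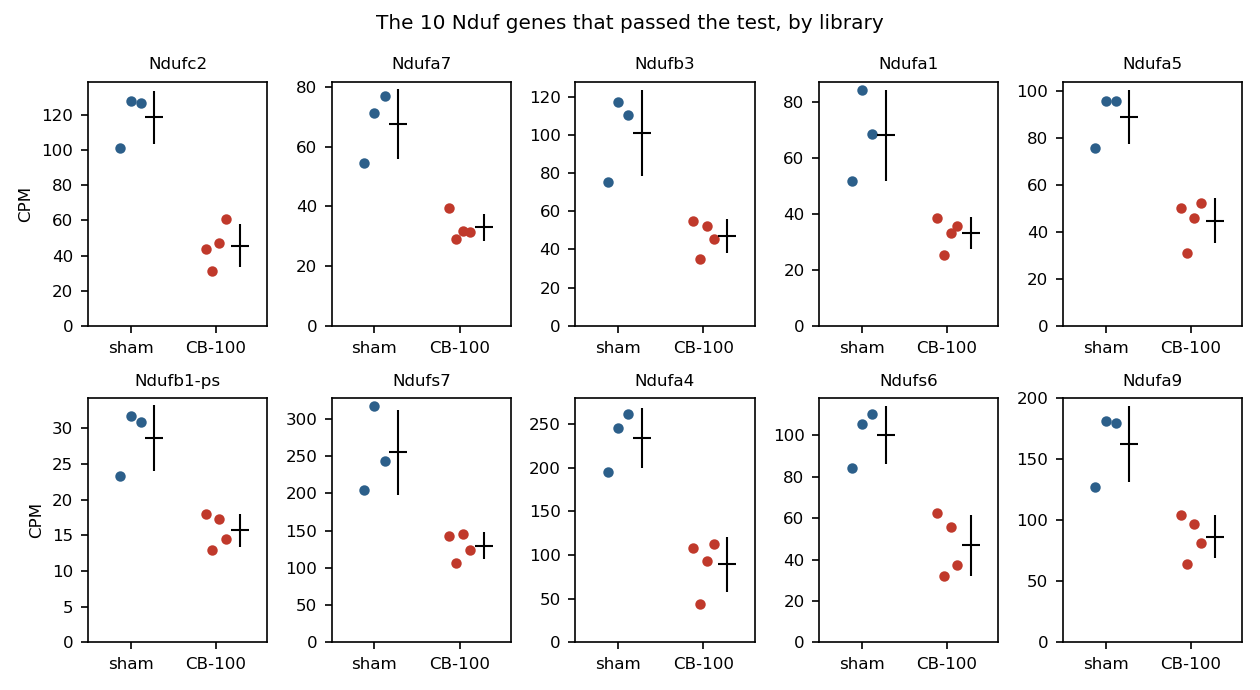
CPM of the 10 Nduf genes that passed the test, 1 point per library, with the group mean and SD beside the points (n = 3 sham, n = 4 CB-100) and each axis starting at 0. In each panel the highest CB-100 point lies below the lowest sham point.

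The accessory subunits nearest to 0 showed overlapping groups. Ndufs5 had 34.1, 16.9, 20.7 and 24.9 CPM in CB-100 mice and 22.1, 32.0 and 30.7 in sham mice (log2 change −0.22, SE 0.24, edgeR adjusted p = 0.61). Ndufb7 had 80.3, 49.4, 71.3 and 66.3 CPM against 68.8, 106 and 83.0 (log2 change −0.36, SE 0.20, edgeR adjusted p = 0.31). Ndufv3, a subunit at the tip of the N module, had 124, 67.7, 96.5 and 78.1 CPM against 88.6, 138 and 129 (log2 change −0.37, SE 0.24, edgeR adjusted p = 0.37). In all 3, CB-100 replicate 1 was above sham replicate 1 and CB-100 replicate 2 was below every sham library. Of the 22 accessory subunits that did not pass, 7 had an adjusted p between 0.05 and 0.1, namely Ndufc1, Ndufb6, Ndufb5, Ndufs4, Ndufb10, Ndufa11 and Ndufb11, with log2 changes of −0.85 to −0.63. Ndufs4, a subunit whose loss in mice gives a mitochondrial encephalopathy, was among them at −0.68 (SE 0.20, edgeR adjusted p = 0.082). The other 15 had log2 changes of −0.73 to −0.22, with separate groups in 4, namely Ndufa6, Ndufa13, Ndufb2 and Ndufb4.

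Ndufab1, the mitochondrial acyl carrier protein, which serves lipoic acid synthesis besides complex I, had a log2 estimate of −0.50 (SE 0.22, edgeR adjusted p = 0.20). Some subunit reads are shared with processed pseudogenes, which bears on Ndufab1 and 3 others. Ndufb4c held 62.6% to 76.5% of the summed Ndufb4 and Ndufb4c counts, depending on the library. Added together, the pair had 57.7 ± 14.5 CPM in CB-100 mice (SD, n = 4) and 131 ± 19.6 in sham mice (SD, n = 3), which gave −1.18 (log2 scale, SE 0.22; edgeR adjusted p = 0.033), whereas Ndufb4 alone had −0.71 (edgeR adjusted p = 0.11). With their pseudogenes added, Ndufa12 had −0.85 (edgeR adjusted p = 0.064) in place of −0.60 (0.14), Ndufs5 −0.43 (0.30) in place of −0.22 (0.61), and Ndufab1 −0.53 (0.18). Adding the pseudogenes was chosen after seeing the data.

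Ndufa4, once assigned to complex I and now known as a subunit of complex IV, fell with the subunits. It (chr6:11900292-11907497, 4 exons) had 108, 44.1, 92.7 and 113 CPM in CB-100 mice and 195, 245 and 261 in sham mice. The groups were far apart and the mean was 2.61-fold lower (log2 change −1.38, SE 0.30, edgeR adjusted p = 0.043). Its paralog Ndufa4l2, known as a gene induced by hypoxia, had 7.44, 6.39, 5.75 and 15.1 CPM against 5.31, 7.01 and 4.14. CB-100 replicate 4 was high and the other libraries overlapped (log2 change 0.68, SE 0.36, edgeR adjusted p = 0.29). The ratio of Ndufa4 to Ndufa4l2 CPM was 6.90 to 16.1 in the CB-100 libraries and 35.0 to 63.1 in the sham libraries. Ndufa4l2 overlaps Shmt2 exons on the opposite strand.

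None of the 8 Ndufaf assembly factors passed the test. An unadjusted edgeR p under 0.05 was found for 2 of the 8, against 4022 of all 16823 tested genes. The median log2 change of the 8 was −0.31 (−0.15 without sham replicate 2, −0.47 without sham replicate 1, −0.11 with the length and GC correction). Ndufaf3, which with Ndufaf4 acts on the Q module, had 12.4, 11.3, 11.1 and 9.21 CPM in CB-100 mice and 13.6, 25.5 and 23.0 in sham mice (log2 change −0.91, SE 0.22, edgeR adjusted p = 0.056). Ndufaf1, part of the machinery that builds the membrane arm, had 12.3, 9.68, 15.6 and 11.9 CPM against 16.4, 21.5 and 23.3 (log2 change −0.72, SE 0.20, edgeR adjusted p = 0.071). In both the groups did not overlap, though sham replicate 1 lay near the CB-100 libraries. Ndufaf3 overlaps Impdh2 exons on the opposite strand. Ndufaf6 was scarce, at 3.58, 1.74, 2.73 and 1.81 CPM against 3.75, 4.47 and 3.34, with overlap (log2 change −0.64, SE 0.31, edgeR adjusted p = 0.25).

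Estimates above 0 were found for 2 of these factors. Ndufaf4 had 27.3, 18.2, 18.7 and 22.3 CPM in CB-100 mice and 15.6, 21.02 and 20.2 in sham mice (log2 change 0.19, SE 0.19, edgeR adjusted p = 0.57). Ndufaf8, the partner of Ndufaf5, had 15.0, 13.2, 14.7 and 7.95 CPM against 8.54, 14.7 and 9.59 (log2 change 0.22, SE 0.27, edgeR adjusted p = 0.66). The groups overlapped in both. Ndufaf5, which hydroxylates Ndufs7, Ndufaf2, a chaperone of the N module, and Ndufaf7, a methyltransferase, had log2 changes of −0.40, −0.22 and −0.07 with overlapping groups (edgeR adjusted p = 0.31, 0.61 and 0.86).

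Assembly factors were also compared with subunits within each library, since both carry the same library scaling. The mean log2 CPM of the 8 factors minus that of the 37 subunits was −3.00, −2.69, −3.03 and −2.96 in CB-100 replicates 1 to 4 and −3.37, −3.29 and −3.38 in sham replicates 1 to 3. The groups did not overlap, the CB-100 libraries being nearer to 0. The geometric mean of the factors was 9.97, 7.48, 8.72 and 7.85 CPM in CB-100 mice and 8.53, 12.7 and 10.8 in sham mice, with CB-100 replicates 1 and 3 above sham replicate 1. No p is given for this difference, because the classes were drawn up with earlier results of these data known.

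The factors were far less abundant per length of mRNA than the subunits. In CPM per kilobase of the median coding transcript, the median level in sham mice was 167 for the core, 130 for the accessory and 8.27 for the assembly genes, and in CB-100 mice 96.6, 79.2 and 6.67. The highest sham levels were those of Ndufa4 (509) and Ndufb9 (439), and the lowest that of Ndufaf6 (3.56). The order of the genes was nearly the same in both groups (Spearman's rho 0.948 across genes, which are not independent replicates). Ndufb1-ps has no such length and was left out.

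**Figure D4:**
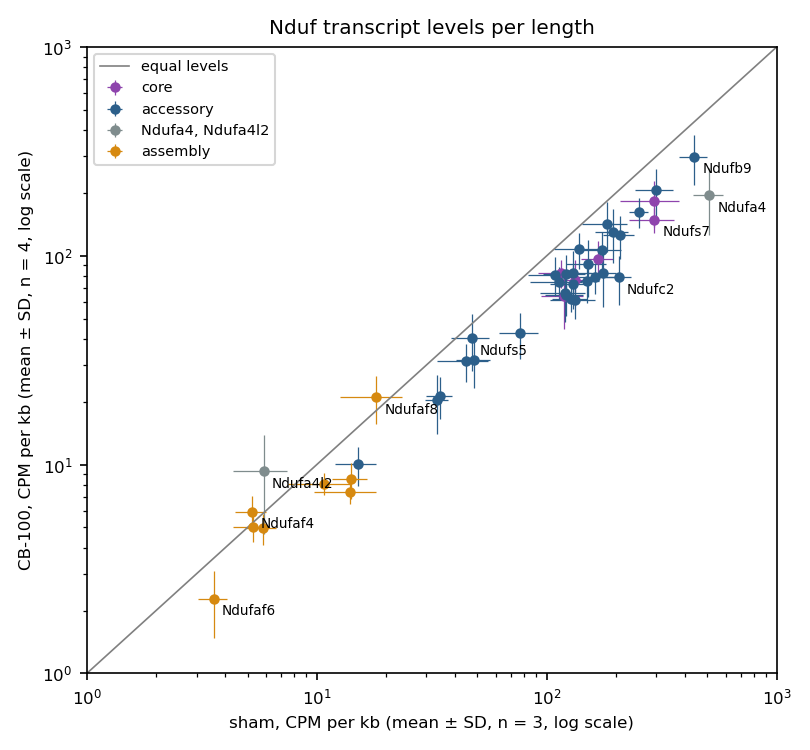
Mean level of each gene in CPM per kilobase in sham (x) and CB-100 mice (y), both on log axes, with bars of 1 SD (n = 3 and n = 4). Subunits lie below the line of equal levels, and assembly factors lie in the lower left of the plot, where Ndufaf8 is above the subunit Ndufb2 on both axes and, with Ndufaf4, above the line.

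The mitochondrially encoded subunits, the pumping and linking cores of the membrane arm, went the other way in their estimates without passing the test. The 6 genes of the heavy-strand transcript had log2 changes of 0.68 to 1.78 (median 1.17), and in 3 of the 6 every CB-100 library was above every sham library, against 11.1% of all tested genes. mt-Nd3 had 2817, 1976, 1711 and 6085 CPM in CB-100 mice and 438, 1739 and 580 in sham mice (log2 change 1.78, SE 0.62, edgeR adjusted p = 0.13). mt-Nd4l had 5268, 4401, 4238 and 9092 CPM against 1437, 4074 and 2190 (log2 change 1.16, SE 0.44, edgeR adjusted p = 0.15). CB-100 replicate 4 was the highest library for both, and sham replicate 2 reached the CB-100 range in mt-Nd3 but stayed just under it in mt-Nd4l. mt-Nd6, the one subunit gene of the opposite strand, had 3251, 2920.0, 2358 and 2584 CPM against 2225, 3593 and 2778, with overlap (log2 change −0.04, SE 0.27, edgeR adjusted p = 0.94).

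Divided within each library, the summed heavy-strand subunit CPM were 21.3, 32.0, 19.8 and 60.7 times the summed CPM of the 37 nuclear subunits in CB-100 replicates 1 to 4. In sham replicates 1 to 3 they were 8.14, 11.6 and 9.86 times that sum. The groups did not overlap in this ratio of mitochondrial to nuclear subunit transcripts. All mitochondrially encoded genes together took 26.8% ± 6.44 of counts in CB-100 mice (SD, n = 4) and 18.8% ± 4.29 in sham mice (SD, n = 3). The 7SL and 7SK RNAs took 9.54% to 14.4% in CB-100 libraries, highest in replicate 2, and 5.89% to 8.35% in sham libraries. Nuclear protein-coding genes took 41.9% to 58.0% in CB-100 libraries and 60.4% to 71.1% in sham libraries. The groups did not overlap in either share, and the part of these shares in the Nduf differences was not tested. Leaving the mitochondrially encoded genes out before scaling left 10 Nduf genes called and a median of −0.68, and leaving out 7SL and 7SK as well left 10 and −0.70. The remaining genes were scaled by TMM anew each time, so these fits cannot show what part the shares had.

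**Figure D5:**
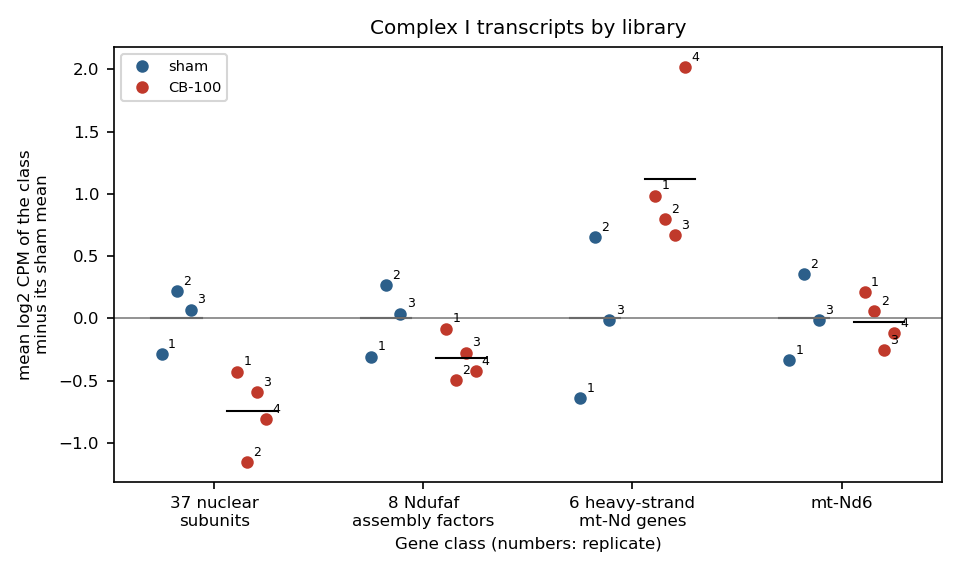
Each point is 1 library's mean log2 CPM over a class of complex I genes, minus the sham mean of that class, with bars at group means and replicate numbers beside the points. Nuclear subunits are lower in all 4 CB-100 libraries than in any sham library, assembly factors overlap, and heavy-strand mitochondrial genes reach 2.02 on the log2 scale above the sham mean in CB-100 replicate 4.

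Other genes tied to the complex were counted from fixed lists. Their counts of unadjusted p under 0.05 stand against 4022 of all 16823 tested genes. Of 13 assembly factors outside the Ndufaf series, 12 were tested (Coa1 was not matched by symbol). None passed (4 had an unadjusted p under 0.05), and the median log2 change was −0.35. Acad9, which builds the membrane arm together with Ndufaf1 and Ecsit, had the smallest p, with 28.5, 30.0, 30.4 and 30.2 CPM in CB-100 mice and 35.6, 44.5 and 39.6 in sham mice (log2 change −0.42, SE 0.12, edgeR adjusted p = 0.087). Its groups were separate and its CB-100 libraries close together.

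Of 8 regulators of nuclear respiratory genes none passed (3 had an unadjusted p under 0.05), with a median of 0.01. Esrra, a nuclear receptor that activates such genes, had the smallest p, with 205, 120, 156 and 140 CPM in CB-100 mice and 82.5, 102 and 115 in sham mice. All CB-100 libraries were above all sham libraries (log2 change 0.63, SE 0.21, edgeR adjusted p = 0.11). The other 2 had estimates below 0, Tfam, a factor of mitochondrial DNA, at −0.43 with no overlap (edgeR adjusted p = 0.16) and Gabpa, whose motif was searched above, at −0.52 with overlap (edgeR adjusted p = 0.17). The median log2 change of 8 genes used as gauges of mitochondrial mass and outer membrane was −0.36. Against 2.28% of all tested genes, 2 of the 8 fell. These were the outer membrane channels Vdac2, with 101, 86.3, 108 and 84.5 CPM against 158, 169 and 181, and Vdac3, with 48.4, 43.7, 54.7 and 43.5 against 68.0, 85.4 and 87.1. Both pairs of groups were far apart (log2 change −0.83 and −0.75, edgeR adjusted p = 0.033 and 0.035). Leaving out any 1 library other than CB-100 replicate 4 ended both calls, with edgeR adjusted p from 0.0504 to 0.13 for Vdac2 and from 0.053 to 0.14 for Vdac3. The other 6 gauges had estimates below 0 without passing (edgeR adjusted p from 0.27 to 0.55).

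Markers of the tissue and of other cells were set beside these results. For all marker lists, counts of unadjusted p under 0.05 again stand against 4022 of all 16823 tested genes. None of the 10 brown adipocyte markers passed, 4 had estimates below 0 and 6 above, and their summed CPM overlapped (1744 to 4345 in CB-100 mice, 1804 to 3027 in sham mice). Ucp1, the uncoupling protein that defines the tissue, was present in all libraries, at 2237, 450, 1098 and 1824 CPM against 140, 875 and 46.1 (log2 change 1.99, SE 0.98, edgeR adjusted p = 0.26). With 1 library left out the Ucp1 estimate ranged from 1.46 to 3.92 on the log2 scale, highest without sham replicate 2. It passed in 0 of the 7 omissions. Dio2, which activates thyroid hormone, was the 1 marker with an unadjusted p under 0.05, at 98.7, 107, 43.6 and 377 CPM against 26.1, 27.8 and 1.03, with no overlap (log2 change 3.10, SE 1.10, edgeR adjusted p = 0.14). Cidea, Cox8b, Cox7a1 and Cpt1b had estimates of −0.24, −0.32, −0.45 and −0.17. Of 6 general adipocyte markers none passed, and Adipoq came closest, at 361, 359, 368 and 375 CPM against 484, 777 and 808 (log2 change −0.91, SE 0.21, edgeR adjusted p = 0.051). The adipocyte sums were 5659 to 9963 CPM in CB-100 mice and 8145 to 11239 in sham mice. Fibroblast markers had none called of 5 (3 had an unadjusted p under 0.05), with sums of 738 to 1518 CPM that lay above the 302 to 678 of sham mice, and 4 of 5 estimates above 0. The collagens Col1a1 and Col3a1 had estimates of 1.78 and 1.87 with every CB-100 library above every sham library (edgeR adjusted p = 0.068 and 0.062). Dcn, with the smallest p and the only estimate below 0, had 48.0, 62.4, 78.7 and 67.8 CPM against 94.9, 116 and 112 (log2 estimate −0.74, SE 0.18, edgeR adjusted p = 0.055). Their part in the Nduf differences was not tested.

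Skeletal muscle lies beside this fat depot and is rich in complex I. None of its 12 markers passed (0 had an unadjusted p under 0.05), with a median log2 change of −0.79, and no marker was at 0 in all libraries. Their summed CPM were 339, 464, 2420 and 467 in CB-100 replicates 1 to 4 and 891, 1990 and 1643 in sham replicates 1 to 3. Acta1, skeletal actin, had 58.0, 105, 431 and 74.8 CPM against 126, 471 and 236 (log2 change −0.73, SE 0.74, edgeR adjusted p = 0.58), and its estimate was −1.81 without CB-100 replicate 3 and −0.12 without sham replicate 2. Mylpf, a fast myosin light chain with the smallest p of the list, had 3.94, 4.84, 26.8 and 7.02 CPM against 14.9, 28.9 and 25.1, with overlap (log2 change −1.11, SE 0.64, edgeR adjusted p = 0.33). The sums overlapped because of CB-100 replicate 3, which had the highest sum of all 7 libraries, while its 37 subunits stood at 66.4% of the sham geometric mean. CB-100 replicate 1, lowest in muscle markers, was the highest CB-100 library in subunits, at 74.4%. Among the sham libraries, replicate 1 was lowest and replicate 2 highest in both muscle markers and subunits. With the muscle score as a covariate edgeR called 0 of the 47 genes. An unadjusted p under 0.05 was found in 23 of the 47 and in 2765 of all 16823 tested genes. The median log2 change of the 47 was −0.59, with 44 of 47 estimates below 0. The part of muscle RNA in the Nduf differences was not tested beyond this covariate.

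Macrophage, lymphocyte and endothelial markers had overlapping sums. They were 94.4 to 228 CPM in CB-100 mice and 109 to 171 in sham mice for 7 macrophage genes, and 593 to 1422 against 507 to 803 for 5 endothelial genes, with CB-100 replicate 4 the highest. For 7 lymphocyte genes they were 3.22 to 5.66 against 3.15 to 7.03, and the low-count filter removed 4 of these. None of the 3 lists held a called gene, and 1 gene of them, Cd3e, had an unadjusted p under 0.05. Of smallest p among macrophage genes was Adgre1, at 6.44, 10.3, 8.20 and 4.70 CPM in CB-100 mice and 4.22, 6.46 and 4.98 in sham mice (log2 change 0.50, edgeR adjusted p = 0.33). Cd3e, of T cells, had 0.43, 1.28, 0.86 and 1.35 CPM against 4.53, 2.54 and 0.71 (log2 change −1.38, edgeR adjusted p = 0.20). Emcn, of endothelium, had 19.4, 14.3, 13.7 and 61.0 CPM against 13.8, 11.3 and 12.1 (log2 change 1.13, edgeR adjusted p = 0.24). The groups overlapped in all 3.

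Short transcripts were lower in CB-100 libraries in general. The 529 tested protein-coding genes with exon lengths up to 1000 bases had a median log2 change of −0.30, and 8.88% were called lower. Of the 37 subunits, 19 were this short, with 8 called and a median of −0.72, and 18 were longer, with 1 called and a median of −0.68. When libraries were corrected for exon length and GC content, 4 of the 47 genes were called and their median was −0.55. Shared reads were a second limit. Non-whole counts or an exon overlap touched 22 of the 47, and among the other 25 there were 7 called and a median of −0.72.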

How the data were processed

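Per the labels' protocols, total RNA of brown adipose tissue from 7 mice was sequenced on an Illumina NovaSeq instrument and aligned with STAR 2.7.9a to Ensembl release 101. Salmon 1.5.2, featureCounts 2.0.3 (Subread), limma and edgeR are also named, per the submitters' processing notes, without their roles. Library kit, strandedness and counting settings were not given in the sources used here. Expected counts per gene, not normalized, were deposited by the authors, with decimals where a gene's reads were divided. Reads of near-identical copies or overlapping genes can thus sit partly with the wrong gene, and 15 Nduf genes have non-whole counts.

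Removing 287 repeated lines of 55774 left 55487 genes, of which 99.4% matched GENCODE M21 (GRCm38), the source of coordinates and lengths. Counts were rounded, filtered with filterByExpr, scaled by TMM (factors 0.755 to 1.25) and tested with edgeR 4.0.16 in R 4.3.3 (robust glmQLFit and glmQLFTest on the group, two-sided, Benjamini-Hochberg over 16823 genes, threshold 0.05). The test called 622 genes, 239 higher and 383 lower. The prior count of log2 CPM was 2. The coefficient of variation between replicates was 28.0%, so the number of mice limits the precision. Only animal codes in the titles mark the samples as separate mice, so p-values measure the spread between samples, which may be technical in part. In simulated data (16823 genes, 200 changed) for CB-100 against sham, recovery was 74.5% at a log2 change of −2 and 30.6% at −1. It was 26.0% at 1 and 66.0% at 2, with 7 false among 103 calls. Recovery under Benjamini-Hochberg depends on the share of changed genes, so these rates need not hold for the real data.

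The members and lists were chosen with earlier results of these data known. A gene that the naming rule gives is not reported here or drawn, while counts and medians include it. By rule, per-library values are given for all core subunits, called accessory subunits and the 3 nearest to 0, the assembly factors of smallest p or largest change, Ndufa4, Ndufa4l2, mt-Nd3, mt-Nd4l, mt-Nd6, Ucp1, Acta1, and the called or smallest-p members of other lists; Tfam, Gabpa, Col1a1, Col3a1, Cidea, Cox8b, Cox7a1 and Cpt1b were named after their values were seen. Promoters shown belong to called subunits of smallest p with a motif. Alternatives were other scalings and filters, DESeq2 1.42.0, limma 3.58.1 (voom), omission of single libraries or of mitochondrial, 7SL and 7SK genes, other thresholds, protein-coding genes alone, a muscle score or sex as covariate, females alone, and a length and GC correction (mgcv 1.9.3).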

Additional observations from a re-analysis of the deposited data

Results flagged for a closer look

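In 5 of 68 quantities examined, 1 of them among the 47 Nduf genes, a single CB-100 library stood apart from the other 3 by more than Dixon's critical value for 4 samples. Chance flags about 1 in 20 such groups. Ndufaf5, the hydroxylase of Ndufs7, stood at 11.2 CPM in CB-100 replicate 1, a gap of 0.845 of the group's range. CB-100 replicate 4 stood apart in 3 mitochondrially encoded subunits, with 50451 CPM of mt-Nd1 (0.922 of the range), 23263 CPM of mt-Nd2 (0.852) and 33210 CPM of mt-Nd5 (0.895). Acta1, the skeletal muscle actin, was high in CB-100 replicate 3, at 431 CPM (0.873). The sham group, with 3 libraries, was not examined in this way.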

How the results depend on the processing

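The median log2 changes of core, accessory and assembly genes kept their sign under every alternative run, at −0.92 to −0.67, −0.80 to −0.55 and −0.47 to −0.15 with 1 library left out, and −0.82 to −0.68, −0.72 to −0.55 and −0.36 to −0.11 under the other settings. The numbers of calls moved. Against 622 genes and 10 Nduf genes, DESeq2 called 1968 and 23, limma voom 1150 and 16, a threshold of 0.1 gave 1860 and 23, and no filter on low counts 914 and 18. A test against a fold change of 1.5 called 9 and 0 (1336 and 13 had an unadjusted p under 0.05), the muscle score as covariate 11 and 0, sex as covariate 238 and 2, females alone 0 and 0, and the length and GC correction 343 and 4. With 1 library left out the counts ranged from 8 to 610 genes and from 0 to 8 Nduf genes. Estimates changed sign for Ndufaf7 (−0.21 to 0.047 with 1 library left out), mt-Nd6 (−0.20 to 0.15 with 1 library left out, 0.084 with the length and GC correction), Ndufaf2 (0.059 with that correction) and Acta1 (0.092 with the muscle score). Omitting a library leaves fewer samples. The muscle score is a mean over the muscle markers, Acta1 among them, so the Acta1 estimate with that score was adjusted partly for Acta1 itself. The cause of the other shifts was not tested. Adding pseudogene counts, chosen after seeing the data, gave 612 and 11 calls. No paired analysis was possible because no animal code is shared between the groups and replicate numbers only follow sample order.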
